A study of Mus musculus with 2 samples.

Results

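The cells described here are the cultured mouse spermatogonia that carried the fewest transcripts of 12 proliferation genes. They were chosen from germ cells with at least 9000 UMIs (unique molecular identifiers, 1 per captured transcript molecule). A cell counted as a germ cell where the summed UMIs of Ddx4, Dazl, Mael, Dnd1 and Zbtb16 exceeded those of the fibroblast genes Col1a1, Col1a2, Col3a1, Fn1 and Sparc. Germ cells were then ranked by the summed UMIs of Top2a, Mki67, Ccnb1, Ccnb2, Cenpf, Ube2c, Cdc6, Dtl, Ung, Mcm10, Lig1 and Mcm5, divided by the total UMIs of the cell, and the lowest 25% over both libraries were taken. They are called low-proliferation cells below. They numbered 340 of 1360 germ cells of that depth and of 1676 cells in all, with 182 in the Chd4 siRNA library and 158 in the control siRNA library.

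The libraries came from undifferentiated spermatogonia of adult C57BL/6 mouse testes, selected for the surface protein THY1 with magnetic beads and cultured in serum-free medium with the growth factors GDNF and bFGF on mitomycin-treated SNL76/7 embryonic fibroblasts, a feeder layer. For transfection the cells were taken off the feeders and kept on plastic for 24 hours with 2 µL Lipofectamine and 75 pmol siRNA. Cells of the Chd4 siRNA group were given siRNA to Chd4, whose product drives nucleosome remodelling in the NuRD complex, and cells of the control siRNA group a non-targeted siRNA. Equal cell numbers of 3 biological replicates were pooled within each group after transfection and captured on the 10x Genomics platform (v2 chemistry). Each group is therefore 1 library, the replicates cannot be told apart, and no difference below has a replicate check or a p-value.

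A dividing cell copies its DNA in S phase and separates the copies in mitosis, after the G2 phase. E2F factors switch on the genes of DNA replication, and the MuvB core switches on the genes of G2 and mitosis with B-MYB and FOXM1, often through a promoter element called CHR; in resting cells the same core, joined by a pocket protein and an E2F repressor, forms the DREAM complex and keeps both groups silent. In the testis, the stem cells of the male germline lie within the undifferentiated spermatogonia and divide to renew themselves or to form progenitors. Transcript levels of cell cycle genes swing within each division, so a low level is found both between divisions and in cells that have stopped dividing.

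The score that chose the cells was continuous across the boundary. The highest scores inside were 327.0, 326.2 and 326.1 CPM (UMIs of a gene or gene list, scaled to the same UMI total in each cell or group), and the lowest scores outside were 327.7, 328.7 and 329.2 CPM. Low-proliferation cells of the Chd4 siRNA library held between 0 and 10 UMIs of the 12 genes with a median of 3, and those of the control siRNA library between 0 and 8 with a median of 3. The other germ cells had medians of 14 in each library. No UMI of any of the 12 genes was found in 11 low-proliferation cells of the Chd4 siRNA library and 3 of the control siRNA library. A cell near the boundary is thus placed by a count of a few molecules, and the class is a range of a score, not a cell type.

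**Figure D1:**
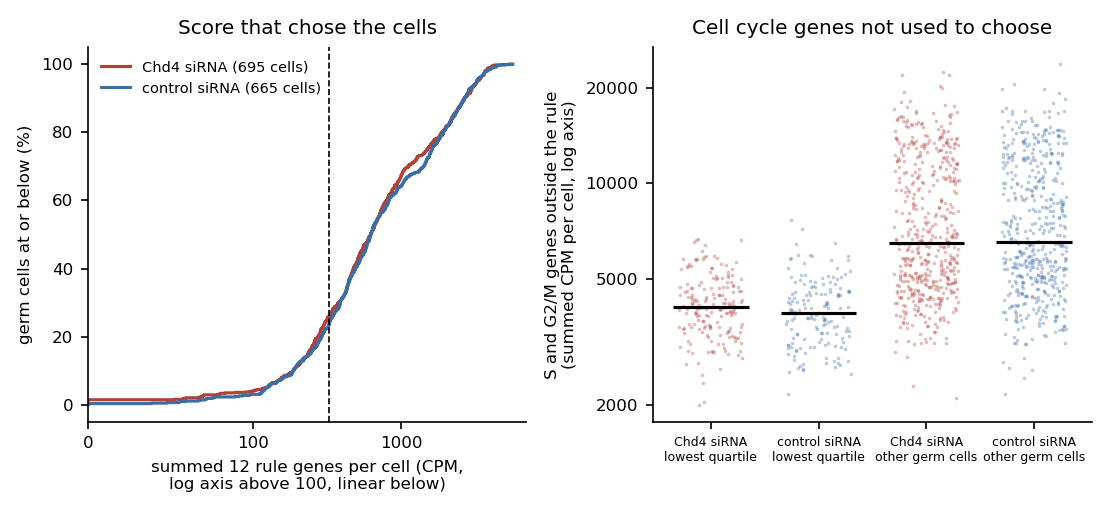
Left, percentage of germ cells at or below a given summed level of the 12 rule genes (CPM), by library, with the boundary dashed. Right, summed level of S and G2/M genes outside the rule in each cell (CPM, log axis; bars are medians), which overlaps between low-proliferation cells and other germ cells although the medians are 4063 and 3896 CPM against 6497 and 6541 CPM.

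By the rule, the low-proliferation cells held more germ cell than fibroblast transcripts: a median of 29.5 UMIs of the 5 germ cell genes in the Chd4 siRNA library and 27 in the control siRNA library, and 1 UMI of the 5 fibroblast genes in each. The label was checked on 13 germ cell markers that the rule did not use. These summed to 1873 CPM in low-proliferation cells of the Chd4 siRNA library and 1670 CPM in those of the control siRNA library, against 1693 and 1602 CPM in other germ cells and 50.9 and 72.8 CPM in feeder cells. Markers of other testis cells were at low levels, but some were higher than in other germ cells. The 6 measured macrophage markers summed to 26.7 and 21.3 CPM against 15.3 and 14.7 CPM in other germ cells, log2 ratios of 0.80 (0.38 to 1.22) and 0.53 (0.04 to 1.01), with Adgre1 and Lyz2 at 0. Only 2 of the 6 reached 20 UMIs in germ cells. Their median log2 ratios were 1.15 and −0.76, and 1 of them, Cd68, was higher in both libraries. The 9 Sertoli markers summed to 20.7 and 27.4 CPM against 16.6 and 15.4 CPM, log2 ratios of 0.32 (−0.14 to 0.76) and 0.83 (0.39 to 1.26), with Aard and Dhh at 0. Feeder cells held 213 and 232 CPM of these 9 genes, so the list did not set Sertoli cells apart from feeder cells here. Only 2 of the 9 reached 20 UMIs in germ cells. The 5 measured Leydig markers summed to 2.81 and 2.05 CPM against 1.23 and 2.40 CPM, with Cyp11a1, Hsd3b1, Insl3 and Hsd3b6 at 0, and the 6 endothelial markers to 10.2 and 6.96 CPM against 13.2 and 14.1 CPM, with Tie1 at 0. Intervals here and below are 95% intervals that cover counting error only, and the part of these cell types in the results was not tested. The UMIs of the low-proliferation cells came to 2844074 and 2441048, with medians of 15114 and 14829 per cell, against 16622 and 16006 in other germ cells. Median genes per cell were 3916.5 and 3815 against 4199 and 4168. Scrublet called 2 and 1 of these cells doublets, which were kept. Of the 799 barcodes held for the Chd4 siRNA library and 817 for the control siRNA library, 1 was shared.

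Promoters are shown for genes of 3 kinds: genes among the 12 lowest outside the rule, listed S phase genes, and a gene that was higher in low-proliferation cells. The windows are those of RefSeq on GRCm38.p6, from 250 bases before to 50 bases after the start site, 5′ to 3′ on the strand of the gene. Capitals mark the letters searched on both strands: TTTGAA for CHR, TTCCCGC and TTTGGCGC for E2F, and CCAAT for the CCAAT box (a match on the other strand shows as the reverse complement). None of these motifs contains another. Cdca3 (chr6:124829926-124830225, plus strand), Hmgb2 (chr8:57511593-57511892, plus strand) and Kif2c (chr4:117178723-117179022, minus strand) are shown because theirs were the windows that held the CHR letters among the 9 found for the 12 lowest genes outside the rule:
Cdca3: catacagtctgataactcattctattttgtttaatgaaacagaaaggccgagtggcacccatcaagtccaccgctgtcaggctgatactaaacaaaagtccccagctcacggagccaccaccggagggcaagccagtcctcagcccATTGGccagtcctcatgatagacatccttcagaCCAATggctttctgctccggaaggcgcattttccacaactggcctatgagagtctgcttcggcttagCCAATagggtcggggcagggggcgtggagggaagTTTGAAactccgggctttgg
Hmgb2: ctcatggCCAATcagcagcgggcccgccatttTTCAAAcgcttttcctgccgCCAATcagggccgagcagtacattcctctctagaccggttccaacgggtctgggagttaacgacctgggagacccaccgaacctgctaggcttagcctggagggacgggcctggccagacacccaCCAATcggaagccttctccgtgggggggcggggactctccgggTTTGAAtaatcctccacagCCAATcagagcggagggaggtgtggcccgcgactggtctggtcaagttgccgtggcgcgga
Kif2c: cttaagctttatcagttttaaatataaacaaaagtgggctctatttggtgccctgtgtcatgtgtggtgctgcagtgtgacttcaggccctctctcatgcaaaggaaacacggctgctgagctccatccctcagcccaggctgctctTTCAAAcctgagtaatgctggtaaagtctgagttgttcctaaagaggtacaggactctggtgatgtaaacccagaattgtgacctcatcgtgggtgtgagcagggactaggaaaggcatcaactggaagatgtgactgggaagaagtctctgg
Mcm3 (chr1:20820263-20820562, minus strand) and Rad51ap1 (chr6:126939538-126939837, minus strand) stand for the S phase genes with an E2F match:
Mcm3: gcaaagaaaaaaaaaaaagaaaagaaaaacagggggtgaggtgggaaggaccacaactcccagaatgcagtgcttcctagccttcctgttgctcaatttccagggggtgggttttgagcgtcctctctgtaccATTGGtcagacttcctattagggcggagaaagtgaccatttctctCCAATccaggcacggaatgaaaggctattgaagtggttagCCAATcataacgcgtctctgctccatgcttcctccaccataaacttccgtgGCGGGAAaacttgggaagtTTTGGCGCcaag
Rad51ap1: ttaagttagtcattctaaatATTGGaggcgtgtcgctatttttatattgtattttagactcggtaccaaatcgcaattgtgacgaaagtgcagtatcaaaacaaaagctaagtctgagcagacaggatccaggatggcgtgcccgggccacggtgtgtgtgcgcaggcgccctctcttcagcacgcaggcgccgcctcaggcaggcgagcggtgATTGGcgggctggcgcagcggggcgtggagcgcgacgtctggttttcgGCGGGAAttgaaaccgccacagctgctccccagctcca
Gas8 (chr8:123518585-123518884, plus strand), one of the genes that were higher in low-proliferation cells, holds no match:
Gas8: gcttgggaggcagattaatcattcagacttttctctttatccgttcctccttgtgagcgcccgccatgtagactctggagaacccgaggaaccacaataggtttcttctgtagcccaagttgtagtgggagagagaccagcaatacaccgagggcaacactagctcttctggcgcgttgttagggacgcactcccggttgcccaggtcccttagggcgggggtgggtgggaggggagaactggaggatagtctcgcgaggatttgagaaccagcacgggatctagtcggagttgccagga
Across the listed G2/M genes outside the rule, 31 of 47 windows (66.0%) held the CHR letters, against 17.9% of all 32851 windows of the table and 11.4% of the windows of the 6007 genes compared below. Of the listed S phase genes outside the rule, 16 of 35 windows (45.7%) held TTCCCGC, against 4.60% of all windows and 9.82% of those of the compared genes. CCAAT stood in 37 of the 47 G2/M windows (78.7%), in 23 of the 35 S phase windows (65.7%) and in 37.4% of all windows. Of the 9 windows found for the 12 lowest genes, 3 held the CHR letters, 3 held CCAAT and 0 held either E2F motif. The Cdca3 and Kif2c windows lie inside the spans of their genes, chr6:124829547-124833701 and chr4:117159639-117182639. Their start sites are thus not the outermost ones, and the Kif2c window held no CCAAT. Among the 12 highest genes, 9 matched with 10 windows, of which 0 held the CHR letters, 1 held TTCCCGC and 2 held CCAAT. A match describes letters in the window, not a bound site, and the lack of one says only that these letters are not there.

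The 12 genes of the rule were lower in the low-proliferation cells, as the choice requires. Their log2 ratios to other germ cells lay between −1.80 for Ung, a uracil-DNA glycosylase, in the control siRNA library, and −5.14 for the proliferation marker Mki67 in the same library. Top2a, the topoisomerase that untangles chromosomes, was at 8.09 CPM in low-proliferation cells of the Chd4 siRNA library and 8.19 CPM in those of the control siRNA library, against 215 and 206 CPM in other germ cells. Together the 12 genes stood at 201 CPM under Chd4 siRNA and 196 CPM under control siRNA in the low-proliferation cells, levels that the shared boundary holds close.

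Genes outside the rule were next compared between low-proliferation and other germ cells, within each library. The members were chosen by transcripts of these same cells, so every value here is a description. In all, 6007 genes reached 200 UMIs in each library's germ cells, of which 197 (3.28%) were lower by at least 0.5 on the log2 scale in both libraries, and 10 (0.166%) were higher by as much. Far more genes were lower than higher. Medians over all 6007 genes were −0.04 in the Chd4 siRNA library and −0.08 in the control siRNA library.

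**Figure D2:**
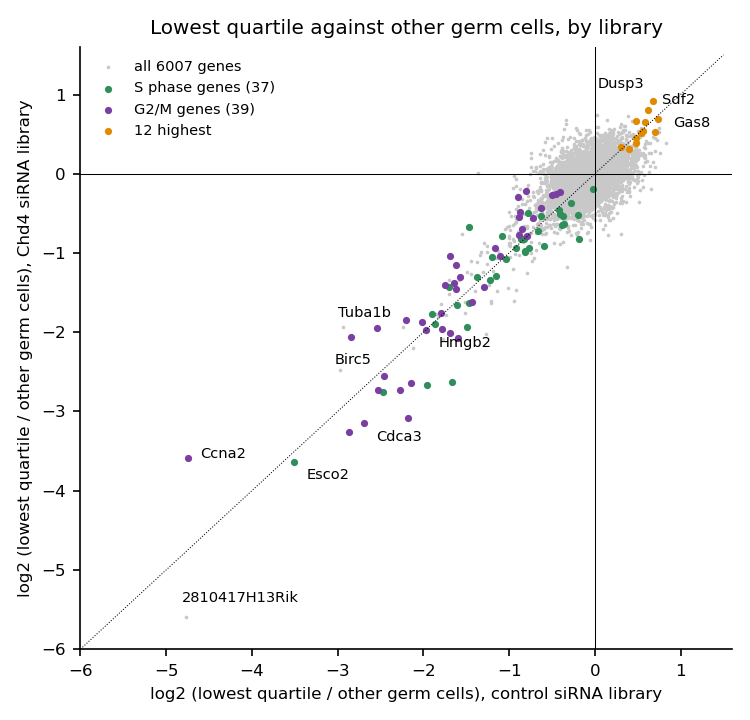
Log2 ratio of low-proliferation cells (lowest quartile) to other germ cells for 6007 genes, in the Chd4 siRNA library (vertical) and the control siRNA library (horizontal). G2/M and S phase genes lie at the lower left, down to −5.60 and −4.77 for 2810417H13Rik, and the 12 highest genes end at 0.92.

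The lowest gene was 2810417H13Rik, which the RefSeq table lists with the synonym Pclaf, a PCNA-binding protein of replicating DNA. It had 2.11 CPM in low-proliferation cells of the Chd4 siRNA library and 3.28 CPM in those of the control siRNA library, against 102.0 and 89.2 CPM in other germ cells, or log2 ratios of −5.60 and −4.77. Both ratios rest on few UMIs in the low-proliferation cells, so their size is loosely determined. Ccna2 (chr3:36564865-36572150), which encodes cyclin A2, the partner of CDK2 in S phase and of CDK1 in G2, had 7.74 and 3.28 CPM, against 92.8 and 87.9 CPM in other germ cells. Esco2, which acetylates cohesin as DNA is copied, had 8.44 and 8.60 CPM against 105.0 and 97.8 CPM. Each of these 3 genes had a log2 ratio of −3.51 or lower in both libraries.

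The rest of the 12 lowest had log2 ratios between −1.94 and −3.26. Cdca3, which promotes entry into mitosis, had log2 ratios of −3.14 and −2.70 and Kif2c, a microtubule-depolymerising kinesin, −3.26 and −2.87. The chromosomal passenger survivin, Birc5, was at −2.55 and −2.46 and the spindle protein Nusap1 at −2.73 and −2.53. Hmgb2, a chromatin protein, kept more of its transcripts, at 152 and 155 CPM against 597 and 606 CPM, a log2 ratio of −1.97 in each library. Lrr1, a substrate receptor that helps take the replisome apart, was at −2.48 and −2.97, and Rrm2, the inducible subunit of ribonucleotide reductase, at −2.76 and −2.47. Tuba1b, an alpha tubulin, was at −1.94 and −2.23, and Aunip, which binds the mitotic kinase Aurora A, at −2.20 and −2.12.

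As a group, all 48 measured G2/M genes outside the rule were lower in both libraries, with a median log2 ratio of −1.44 in the Chd4 siRNA library and −1.63 in the control siRNA library. Of the 39 with at least 200 UMIs in each library, 32 were lower past the fold, where 3.28% of all genes were. Their summed level was 2143 and 1957 CPM in low-proliferation cells against 4692 and 4755 CPM in other germ cells. All 43 measured S phase genes outside the rule were lower too, with medians of −0.93 and −0.86, and 27 of 37 were lower past the fold. The MCM helicase subunit gene Mcm3 was at −1.64 and −1.47, and Rad51ap1, which acts in homologous recombination, at −1.90 and −1.87. Histone genes, a list of replication-dependent genes, which are made with DNA in S phase, together with variants, had medians of −0.68 and −0.53. Among them H2afz was at 504 and 405 CPM against 888 and 812 CPM, but H3f3b, whose product is laid down throughout the cell cycle, had a log2 ratio of −0.22 in each library.

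Cell by cell the separation was not complete. The summed S and G2/M genes outside the rule had a median of 4063 CPM in low-proliferation cells of the Chd4 siRNA library, with a range of 2002 to 6675 CPM, and 3896 CPM in those of the control siRNA library, with a range of 2167 to 7652 CPM. Other germ cells had medians of 6497 and 6541 CPM and reached as low as 2105 and 2158 CPM. Where the cells were ranked by these genes in place of the 12, 203 of the 340 cells (59.7%) were chosen again. In cells thinned to 9000 UMIs, Ccna2 was found in 4.95% of low-proliferation cells of the Chd4 siRNA library and 2.53% of those of the control siRNA library, against 39.0% and 37.5% of other germ cells. Without thinning the shares were 10.4% and 5.06% against 52.0% and 51.3%. Feeder cells, with median depths of 42147 and 39926 UMIs, held a Ccna2 UMI in 10 of 86 and 15 of 75 thinned cells and in 22.1% and 33.3% of cells without thinning. Feeder cells themselves held 68 and 110 UMIs of Ccna2, with up to 11 and 20 UMIs in a cell, so their share gives no level of free RNA for this gene.

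The levels followed the score in steps. From the lowest to the highest 25% of germ cells, G2/M genes outside the rule stood at 2143, 2460, 3289 and 7668 CPM in the Chd4 siRNA library and at 1957, 2478, 3352 and 7575 CPM in the control siRNA library. The fourth group stood apart from the others, and the low-proliferation cells differed from the next 25% by less than that group did from the third. S phase genes stood at 2001, 2267, 3189 and 5399 CPM under Chd4 siRNA and at 1975, 2283, 3171 and 4916 CPM under control siRNA. Ccnd2, which encodes cyclin D2 and couples growth factor signals to the cell cycle, showed no such order: it was at 656, 583, 819 and 498 CPM under Chd4 siRNA and at 633, 664, 818 and 515 CPM under control siRNA. Sdf2 ran opposite, at 43.6, 31.1, 25.5 and 19.9 CPM under Chd4 siRNA and at 36.5, 33.0, 24.4 and 16.2 CPM under control siRNA.

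**Figure D3:**
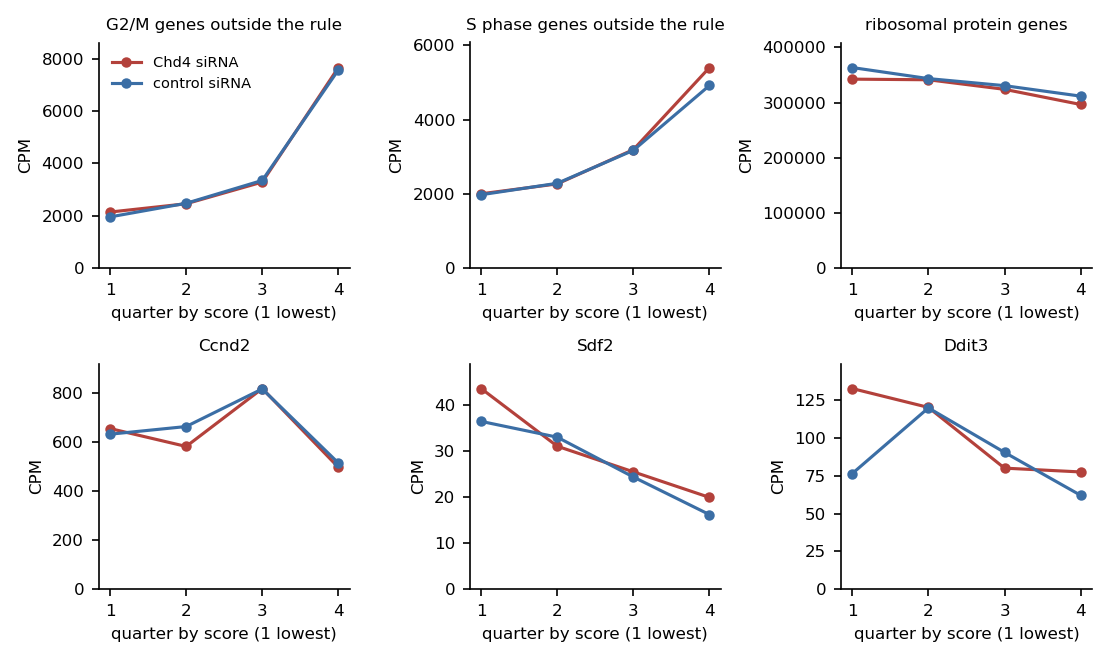
Summed CPM of gene lists and of single genes over germ cells divided into 4 groups of 25% by the 12-gene score, group 1 being the low-proliferation cells. G2/M and S phase genes climb with the score in both libraries, Sdf2 declines and Ccnd2 is highest in the third group. Ddit3 separates the libraries most in group 1, at 133 CPM under Chd4 siRNA and 76.6 CPM under control siRNA. In group 2 it is at 120 CPM in each library.

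Among Ccnd1, Ccnd2, E2f1, E2f3, Foxm1 and Mybl2, the D-type cyclins differed least and Foxm1 most. Ccnd1, which encodes cyclin D1, was at 48.5 and 37.7 CPM in low-proliferation cells against 63.2 and 55.2 CPM in other germ cells, log2 ratios of −0.38 (−0.66 to −0.11) and −0.55 (−0.89 to −0.23). Ccnd2 was at 0.06 (−0.02 to 0.14) and −0.04 (−0.12 to 0.04). Among the E2F activators, E2f1 was at −1.61 and −0.95 and E2f3 at −1.37 and −1.32. Foxm1, the activator of mitotic genes, was at −2.29 and −3.02 from 10 and 5 UMIs, and Mybl2, which encodes B-MYB, at −1.52 and −1.70. The MuvB and DREAM list as a whole had medians of −0.35 and −0.19. Of its 7 members with enough UMIs, 1 was lower past the fold, where 3.28% of all genes were.

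CDK inhibitors and growth arrest genes had medians close to 0. The 7 CDK inhibitor genes were at 0.04 and −0.11, and 0 of the 3 with enough UMIs were higher past the fold, where 0.166% of all genes were. Their summed level was lower in both libraries, with log2 ratios of −0.12 (−0.23 to −0.01) and −0.31 (−0.44 to −0.18). Cdkn1a, which encodes p21, was at 54.5 and 45.1 CPM in low-proliferation cells against 53.2 and 53.1 CPM in other germ cells, with log2 ratios of 0.04 (−0.24 to 0.30) and −0.24 (−0.55 to 0.06). Cdkn1b, which encodes p27 and marks resting cells of many tissues, had 10 UMIs in the low-proliferation cells of each library, too few to compare. Cdkn2a, which encodes p16 and p19ARF, was lower, at −0.40 and −0.49. The 24 measured growth arrest and quiescence genes had medians of 0.03 and −0.01, and 2 of 18 with enough UMIs were lower past the fold, where 3.28% of all genes were: Cited2 at −0.55 and −0.57 and Ccng2 at −0.50 and −0.55.

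**Figure D4:**
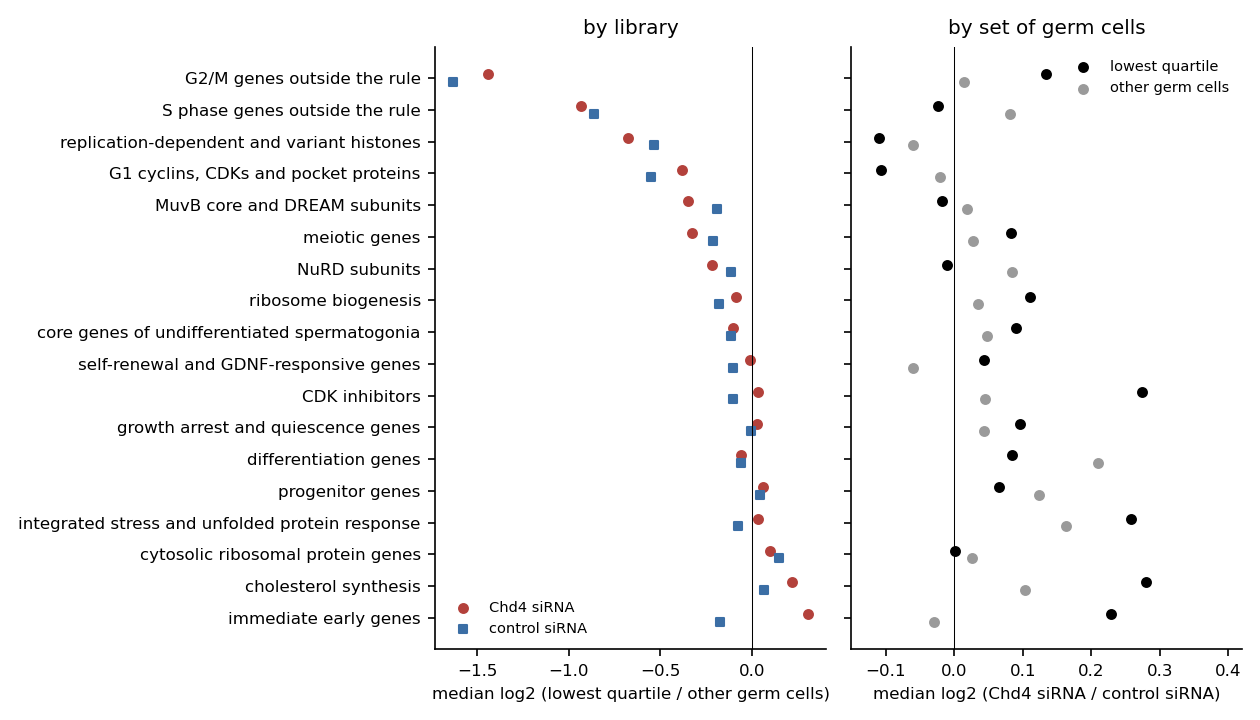
Median log2 ratios of 18 gene lists. Left, low-proliferation cells over other germ cells in each library, lowest for G2/M genes at −1.44 and −1.63; right, Chd4 siRNA over control siRNA in low-proliferation cells and in other germ cells, with cholesterol synthesis at 0.28 and 0.10.

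Of the genes that were higher in low-proliferation cells, the 12 leading by their interval bound had log2 ratios of 0.30 to 0.92. Dusp3, a phosphatase of MAP kinases, had 32.3 and 27.0 CPM against 17.1 and 16.9 CPM in other germ cells, log2 ratios of 0.92 (0.53 to 1.30) and 0.68 (0.24 to 1.10). Sdf2, part of a chaperone complex of the endoplasmic reticulum, was at 0.80 and 0.62, and Gas8, a subunit of the dynein regulatory complex of cilia, at 0.69 and 0.74. Zfos1, listed with the synonym Zfas1, is a non-coding RNA that hosts small nucleolar RNAs; it had 156 and 163 CPM against 99.8 and 109 CPM, log2 ratios of 0.65 and 0.59. Saraf, which turns down calcium entry at the endoplasmic reticulum, was at 0.52 and 0.54, and the mitochondrial membrane protein gene Fundc2 at 0.67 and 0.48. Rhox1, a homeobox gene of the X-linked reproductive cluster, was at 0.54 and 0.56, and Prr13 was at 0.53 and 0.70. Ifitm2, an interferon-induced membrane protein gene, was at 0.45 and 0.48 and the cytokine receptor gene Crlf2 at 0.39 and 0.48.

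Feeder cells held more of several of these transcripts than germ cells did. Their levels under Chd4 siRNA and control siRNA were 87.1 and 65.2 CPM for Dusp3, 80.4 and 79.2 CPM for Sdf2, 263 and 302 CPM for Zfos1, 160 and 160 CPM for Fundc2 and 446 and 396 CPM for Ifitm2. Saraf at 86.0 and 56.3 CPM, Gas8 at 18.2 and 12.4 CPM and Rhox1 at 1.38 and 0.64 CPM were lower in feeder cells than in low-proliferation cells. The 5 fibroblast rule genes, by contrast, summed to 55.9 and 54.1 CPM in low-proliferation cells against 69.6 and 69.3 CPM in other germ cells, and the 15 measured fibroblast markers outside the rule to 205 and 172 CPM against 173 and 171 CPM. The part of feeder RNA in these genes was not tested beyond these values.

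Ribosomal protein genes made up a larger share of the transcripts of low-proliferation cells than of other germ cells. From the lowest to the highest 25% by the score, they summed to 342509, 341397, 324050 and 296590 CPM under Chd4 siRNA. Under control siRNA the sums were 363507, 343512, 330717 and 311713 CPM. The low-proliferation cells of the Chd4 siRNA library were thus close to the next 25%. Against other germ cells, 71 of 74 cytosolic ribosomal protein genes were higher in both libraries and 0 lower in both, with medians of 0.10 and 0.15. None passed the fold, so the difference was small in each gene. Rps27 led with 0.31 and 0.39, Rpl10a was at 0.25 in each library and Rps15a at 0.23 and 0.28; the paralog Rpl22l1, outside the list, was at 0.34 and 0.30. Since all values are shares of a total, a lower sum of other genes raises them too. Ribosome biogenesis genes went the other way, with medians of −0.09 and −0.18 and 19 of 24 lower in both libraries. Utp20 was at −0.56 and −0.37 and the box C/D factor Nop56 at −0.28 and −0.33, while Npm1, an abundant nucleolar protein gene, was at 0.15 and 0.12.

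Stem cell genes were described next. The 22 measured self-renewal and GDNF-responsive genes had medians of −0.01 and −0.10, and 0 of the 13 with enough UMIs passed the fold, close to the share over all genes (3.28% lower and 0.166% higher). Etv5, a factor induced by GDNF, was at 0.05 (−0.17 to 0.27) and 0.11 (−0.12 to 0.34), and Ret, the GDNF receptor, at −0.11 (−0.32 to 0.11) and 0.07 (−0.16 to 0.30). Nanos2, which represses translation in germline stem cells, was at 23.6 and 33.2 CPM against 20.6 and 22.2 CPM, log2 ratios of 0.20 (−0.23 to 0.61) and 0.58 (0.19 to 0.96). Id4, a marker of the stem cell fraction, was at −0.20 (−0.82 to 0.37) and −0.68 (−1.43 to −0.01) from 32 and 21 UMIs. Sall4, a zinc finger factor of undifferentiated spermatogonia, was at 0.10 and 0.05 with intervals that included 0. Kit, which marks differentiating spermatogonia, had 1 UMI in the low-proliferation cells of each library, and Stra8, a retinoic acid target, 7 and 6.

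Among meiotic genes, 3 of the 10 with enough UMIs were lower past the fold in both libraries, where 3.28% of all genes were. They were Syce2, a part of the synaptonemal complex, at −0.66 and −0.82, the meiotic cohesin gene Smc1b at −0.67 and −0.73, and Tex11, which acts in crossover formation, at −0.75 and −0.75. In the core list of undifferentiated spermatogonia 0 of 10 passed the fold, again near that share, with Epcam, an adhesion protein, at −0.35 and −0.54. Differentiation genes had medians of −0.06 in each library.

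The libraries were then compared within the low-proliferation cells. The siRNA target Chd4 (chr6:125095981-125130591) had 627 UMIs or 220.5 CPM under Chd4 siRNA and 1194 UMIs or 489 CPM under control siRNA, a log2 ratio of −1.15 (−1.29 to −1.01). In other germ cells the ratio was −1.05 (−1.12 to −0.98), and the difference of −0.10 (−0.25 to 0.06) lay within counting error. Median Chd4 UMIs per low-proliferation cell were 3 under Chd4 siRNA and 7 under control siRNA, and the ranges overlapped, with a highest cell of 12 and of 25 UMIs.

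Low-proliferation cells made up 26.2% (23.0 to 29.6) of germ cells under Chd4 siRNA and 23.8% (20.6 to 27.2) under control siRNA. The difference was 2.43 percentage points (−2.18 to 7.01), within counting error. In cells thinned to 9000 UMIs, 22.3% under Chd4 siRNA and 20.8% under control siRNA held at most 2 UMIs of the 12 genes, a difference of 1.55 points (−2.83 to 5.91). The sign was not stable: ranked by the S and G2/M genes outside the rule, the difference was −1.10 points.

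Of 3723 genes with at least 200 UMIs in the low-proliferation cells of both libraries together, 61 (1.64%) were at least 0.5 higher on the log2 scale under Chd4 siRNA and 86 (2.31%) at least 0.5 lower. With TMM scaling the split was 32 higher and 109 lower, and with DESeq2 size factors 34 and 107. The median over these genes was 0.08 in low-proliferation cells and 0.04 in other germ cells. Near the minimum of 200 UMIs the interval of a ratio is wider than the fold itself, so single genes there are weakly determined.

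The 10 lowest genes were low in other germ cells as well. After Chd4, Yrdc, which acts in tRNA modification, was at −1.41 (−1.85 to −0.99) in low-proliferation cells and −1.51 in other germ cells, and Taf10, a subunit of TFIID, at −1.12 and −0.99. Gatad1, a zinc finger protein gene, was at −1.19 and −0.99 and the ubiquitin ligase gene Rnf187 at −1.08 and −0.79. C1ql1, a secreted C1q-like protein gene, was at −1.17 and −0.59. Gm10076, Gm8186, Gm10263 and Rps27rt, between −1.63 and −0.93, are near copies of other genes, and their counts are uncertain. Within the fixed lists, the Krüppel-like factor gene Klf2 was at −1.12 in low-proliferation cells and −1.13 in other germ cells, the Notch target Hes1 at −0.86 and −0.61, and Chd3, a paralog of the target, at −0.50 and −0.33. Hist1h2ap, a histone gene with near-identical copies, was at −1.22 and −1.18.

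The 10 highest genes had larger ratios in low-proliferation cells than in other germ cells. Ddit3 (chr10:127290774-127296288), which encodes CHOP, a transcription factor of the endoplasmic reticulum stress and integrated stress responses, led with 378 UMIs or 133 CPM under Chd4 siRNA and 187 UMIs or 76.6 CPM under control siRNA, a log2 ratio of 0.79 (0.54 to 1.06). In other germ cells its ratio was 0.04 (−0.10 to 0.19). Klf6 (chr13:5861482-5870394), a Krüppel-like factor gene induced early by stress and serum, was at 61.5 CPM under Chd4 siRNA and 35.6 CPM under control siRNA, 0.79 (0.41 to 1.18), and at 0.06 (−0.17 to 0.29) in other germ cells. Socs3, an inhibitor of cytokine signalling, was at 0.82 (0.44 to 1.21) and 0.35 (0.13 to 0.56), and S100a10, an annexin partner, at 0.77 (0.46 to 1.09) and 0.33 (0.17 to 0.50). Feeder cells held 774 and 620 CPM of S100a10, against 88.3 CPM in low-proliferation cells under Chd4 siRNA and 51.6 CPM under control siRNA, and the part of feeder RNA in its ratio was not tested. Cdkn1c (chr7:143458339-143461050), an imprinted gene for the CDK inhibitor p57, was at 66.8 CPM under Chd4 siRNA and 39.7 CPM under control siRNA, 0.75 (0.39 to 1.12), and at 0.23 (0.03 to 0.43) in other germ cells. Actg1, a cytoplasmic actin gene, was at 0.58 and 0.30, the kinase genes Pim3 and Prkd3 at 0.75 and 0.72 against 0.29 and 0.24 in other germ cells, the ribosome rescue factor gene Pelo at 0.79 and 0.31, and Atxn10 at 0.68 and 0.35. These genes were chosen for a high ratio in low-proliferation cells, which by itself favours a lower ratio elsewhere. Feeder cells held 153 and 113 CPM of Klf6 under Chd4 siRNA and control siRNA. Actg1 was at 887 and 902 CPM there, and Cdkn1c at 0.55 and 1.27 CPM. Summed fibroblast markers outside the rule had a ratio of 0.25 (0.07 to 0.44), against 0.02 in other germ cells. The 5 fibroblast rule genes were at 0.05 (−0.29 to 0.39) and 0.01. The part of feeder RNA in these ratios was not tested.

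**Figure D5:**
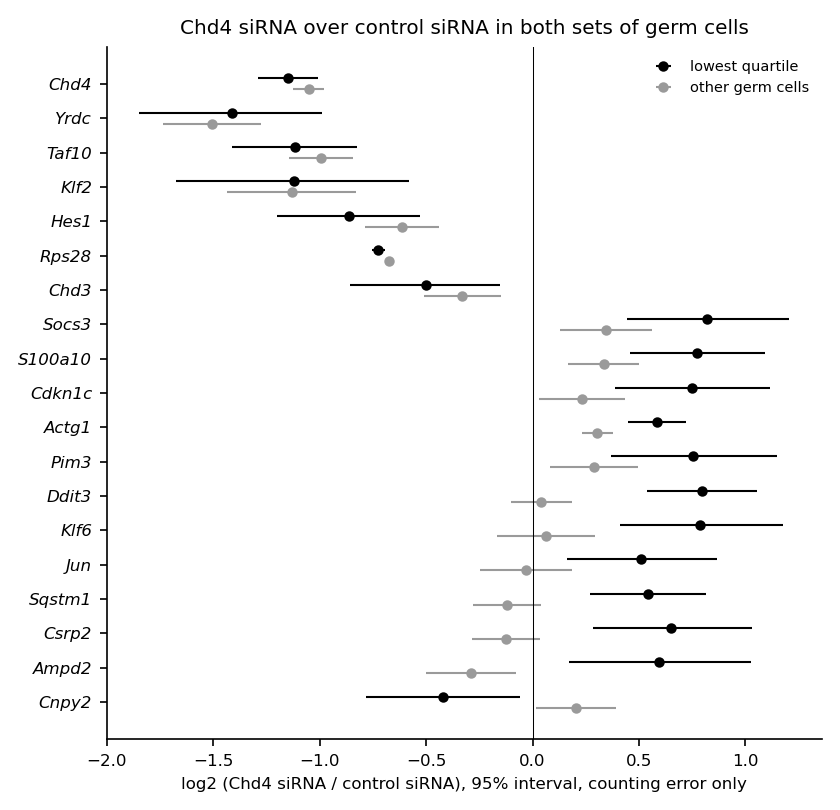
Log2 ratio of Chd4 siRNA to control siRNA for 19 genes in low-proliferation cells (black) and in other germ cells (grey), with 95% intervals for counting error. The genes at the top are low in both sets, whereas Ddit3 is at 0.79 and 0.04 and Klf6 at 0.79 and 0.06.

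The Ddit3 transcripts were uneven among cells. A UMI was found in 57.7% of low-proliferation cells under Chd4 siRNA and 55.1% under control siRNA, and in 45.6% and 43.0% of thinned cells, so the shares of cells differed little. The highest cells held 24 and 21 UMIs under Chd4 siRNA, against 8 and 7 under control siRNA, and 9 and 0 cells held 10 or more. Without the 5 cells of each library with the most Ddit3 UMIs, an alternative chosen after seeing the data, the log2 ratio was 0.71. Other germ cells of the control siRNA library also reached 23 UMIs in a cell, and 16 other germ cells under Chd4 siRNA and 13 under control siRNA held 10 or more. Feeder cells had 116 CPM under Chd4 siRNA and 132 CPM under control siRNA and a UMI in 46.5% and 52.0% of thinned cells, close to the shares in low-proliferation cells, at depths of 42147 and 39926 UMIs.

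The ratio itself was set against that of other germ cells for every gene. The difference of the log2 ratios was at least 0.5 for 35 of 3723 genes (0.94%) and at most −0.5 for 21 (0.564%). By the bound of the difference the highest were Ddit3 at 0.75 (0.46 to 1.04), Ampd2, an AMP deaminase gene, at 0.88 (0.42 to 1.34), Csrp2, a LIM domain protein gene, at 0.78 (0.38 to 1.17), and Sqstm1, which encodes the autophagy receptor p62, at 0.66 (0.35 to 0.97). The lowest were Iqcb1, a gene of the ciliary base, at −0.68 (−1.10 to −0.27), Rbms2, an RNA-binding protein gene, at −0.49, Cnpy2 at −0.62 and Sdccag3 at −0.50. These intervals are not adjusted for the 3723 genes searched.

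Several of these differences rested on how the low-proliferation cells were chosen. Where cells were ranked by the S and G2/M genes outside the rule, the difference was 0.06 for Ddit3, 0.07 for Ampd2 and −0.00 for Sqstm1, while Csrp2 stood at 0.53 and Cnpy2 at −0.66. The Ddit3 ratio itself was then 0.28, and in the lowest 10% by the 12-gene score it was 1.54. Ratios of Klf6, Socs3 and Cdkn1c kept their sign in every alternative run, with ranges of 0.42 to 0.86, 0.57 to 0.85 and 0.61 to 0.89. The Ddit3, Ampd2 and Sqstm1 differences were thus present in the cells chosen by the 12 genes and near 0 in those chosen by the wider S and G2/M lists.

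For the stress, sterol and early response lists, the median log2 ratio of Chd4 siRNA to control siRNA was higher in low-proliferation cells than in other germ cells. The 13 immediate early genes with at least 20 UMIs had a median log2 ratio of 0.23 in low-proliferation cells and −0.03 in other germ cells, with Junb at 0.60, Jun at 0.51 and Dusp1 at 0.84, but Jund at −0.85. Genes of the unfolded protein and integrated stress responses had medians of 0.26 and 0.16, and 13 of 17 were higher, among them Atf3 at 1.49 (0.48 to 2.61) from 36 and 11 UMIs, Phgdh, an enzyme of serine synthesis, at 0.51, and Atf4, the central factor of the response, at 0.27. Nupr1 had 29 UMIs under Chd4 siRNA and 2 under control siRNA. The stress response list summed to 1040 CPM under Chd4 siRNA and 822 CPM under control siRNA in low-proliferation cells. In other germ cells the sums were 1020 and 918 CPM. Cholesterol synthesis genes had medians of 0.28 and 0.10, and 18 of 21 were higher, with the demethylase gene Cyp51 at 0.54 (0.32 to 0.77), the synthase gene Hmgcs1 at 0.48 and Insig1, a brake on the pathway, at 0.31. Over all genes tested the medians were 0.08 and 0.04. Ranked by the S and G2/M genes outside the rule, the medians in the chosen cells were −0.04 for immediate early, 0.10 for stress response and 0.18 for cholesterol synthesis genes.

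S and G2/M genes were also compared between the libraries, where 1.64% of all genes were higher and 2.31% lower past the fold. S phase genes outside the rule had a median of −0.02, with 18 higher and 25 lower under Chd4 siRNA, and 0 of 18 passed the fold. G2/M genes outside the rule had a median of 0.13, with 31 higher and 17 lower, and 0 of 16 passed the fold, both counts being near the share over all genes. Their summed level differed by 0.13 (0.08 to 0.19) on the log2 scale in low-proliferation cells and by −0.02 in other germ cells. Of the CDK inhibitors with enough UMIs, Cdkn1c alone passed the fold, Cdkn2a was at 0.30 (0.08 to 0.52) and Cdkn1a at 0.27 (−0.09 to 0.64).

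Genes of the spermatogonial state differed in both directions between the libraries. Summed over the list, differentiation genes stood at 560 CPM under Chd4 siRNA and 454 CPM under control siRNA in low-proliferation cells, a log2 ratio of 0.30 (0.19 to 0.41), against 0.18 in other germ cells. The difference of these ratios was 0.12 (−0.001 to 0.25), within counting error, and the list medians had the reverse order, at 0.08 and 0.21. By sums, the core genes of undifferentiated spermatogonia were at 0.15 (0.08 to 0.23) against 0.03, and the self-renewal and GDNF-responsive genes at −0.03 (−0.11 to 0.06) against −0.09. Medians of these 2 lists were 0.09 against 0.05 and 0.04 against −0.06. Among single genes, Tex15, which acts in transposon silencing, was at 0.38 (0.21 to 0.56), Foxo1, a factor of stem cell maintenance, at 0.40 (0.12 to 0.69) and the germ cell surface protein gene Tex101 at 0.39 (0.21 to 0.58). From fewer UMIs, Sohlh2, a factor of differentiation, was at 0.65 (0.15 to 1.16), the tetraspanin gene Cd82 at 0.67 (0.11 to 1.25) and Utf1, a chromatin protein gene of undifferentiated cells, at −0.96 (−1.70 to −0.24). Nanos2 was at −0.49 (−0.98 to −0.01) in low-proliferation cells and −0.11 (−0.41 to 0.19) in other germ cells, a difference of −0.38 (−0.94 to 0.17). Etv5 at −0.06, Ret at −0.09, Sall4 at −0.26 and Id4 at 0.39 had intervals that included 0. The retinoic acid carrier gene Crabp1 was at 1.07 (0.61 to 1.55) and the pluripotency factor gene Pou5f1 at 0.53 (0.19 to 0.88). The 74 ribosomal protein genes had a median of 0.00, with 37 higher and 37 lower, and 6 were lower past the fold and 0 higher, where 2.31% and 1.64% of all genes were. The lower ones included Rps28 at −0.72 (−0.76 to −0.69), Rpl38 at −0.71 and Rpl29 at −0.78. They stood at −0.68, −0.56 and −0.70 in other germ cells.

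Further lists were compared between the libraries in the same way, and small counts past the fold are read against the 1.64% of all genes higher and 2.31% lower. Of 9 NuRD subunit genes with enough UMIs, 2 were lower past the fold, Chd4 and Chd3, and the median of the list was −0.01 in low-proliferation cells and 0.08 in other germ cells. Targets of p53, the DNA damage factor, had medians of 0.11 and 0.05, with 1 of 6 past the fold. Heat shock and dissociation genes had medians of 0.19 and 0.12, and 0 of 8 passed the fold. Nuclear-encoded respiratory chain genes had medians of −0.02 and −0.03, with 1 of 38 lower past the fold, near the share over all genes.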

How the data were processed

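Single-cell RNA-seq was deposited as 1 matrix of counts of UMIs per gene and cell for each library; the authors' aligner and filter were Cell Ranger 2.1.0 and Seurat on mm10, per the submitters' processing notes. The gene table held here names 26893 of 27998 rows. The 1105 unnamed rows were left out of the UMI totals, so CPM, depth and the minimum UMIs per cell rest on named rows. Unnamed rows held a median of 12.5% of UMIs in low-proliferation cells under Chd4 siRNA and 12.3% under control siRNA. The last cell of each matrix held here is incomplete and was not used. Members and gene lists were chosen with earlier results of these data known. UMIs were summed over the cells of a group and divided by their total (CPM). Ratios carry exact conditional binomial 95% intervals, levels exact Poisson and shares exact binomial intervals, and all cover counting error only. No test was run, since each group is 1 library. A gene passed where its log2 ratio reached 0.5 with at least 200 UMIs; list medians needed 20 UMIs.

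Genes were named by a fixed rule: Chd4, the 12 rule genes, the 12 highest and 12 lowest against other germ cells, the 10 highest and 10 lowest between libraries and the 4 highest and 4 lowest differences, by the bound nearest 0, up to 6 of each list, and further cell cycle and stem cell regulators fixed by name. Cells were thinned to 9000 UMIs for shares. Doublets were called with Scrublet (scanpy 1.11.5, expected rate 1%) and kept. TMM factors (edgeR 4.0.16) and size factors (DESeq2 1.42.0) were alternative scalings only. The calculation was tested on simulated data. Python 3.11.15, numpy 2.4.6, scipy 1.17.1 and R 4.3.3 were used. Promoters are RefSeq's (GRCm38.p6) and gene positions GENCODE's (GRCm38).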

Additional observations from a re-analysis of the deposited data

Results flagged for a closer look

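Among named genes with at least 200 UMIs in the low-proliferation cells, 3 had Chd4 siRNA log2 ratios on opposite sides of 0 in low-proliferation cells and in other germ cells with both counting intervals free of 0. The differences were not tested, and other named genes turned sign with an interval that included 0. Ampd2 was at 0.59 in low-proliferation cells and −0.29 in other germ cells, a difference of 0.88. Arl6ip1, a gene of endoplasmic reticulum shape, was at 0.29 in low-proliferation cells and −0.10 in other germ cells, a difference of 0.39. Cnpy2 was at −0.42 in low-proliferation cells and 0.20 in other germ cells, a difference of −0.62.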

How the results depend on the processing

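No paired analysis was possible because each group is 1 library of pooled replicates. Counts of genes past the fold depended on the minimum and the fold, as fewer or more genes were tested. With at least 50 UMIs they were 458 higher and 312 lower between the libraries, 64 and 392 against other germ cells, and 430 and 317 for the difference. With at least 500 UMIs they were 10 and 37, 3 and 95, and 2 and 1, and with a log2 fold of 1 they were 0 and 11, 0 and 78, and 0 and 0. With TMM scaling 32 genes were higher between the libraries and 23 in the difference, and with DESeq2 scaling 34 and 23. With the lowest 10% of cells 42 genes were lower between the libraries and 5 in the difference. With the lowest 50%, 45 were higher against other germ cells, and the difference had 58 higher and 50 lower. The difference had 13 lower with a 25% limit in each library and 11 lower with thinned cells, where the Chd4 ratio was −1.002. Weighted to the same depth, 4 genes were higher against other germ cells. Ranked by S and G2/M genes outside the rule, the share difference was −1.10 points, the immediate early medians were −0.0404 between the libraries and −0.0845 against other germ cells under Chd4 siRNA, the cholesterol median against other germ cells under Chd4 siRNA was −0.0672, Ampd2 was at −0.0542, Jun at −0.0404, the Sqstm1 difference at −0.00212 and Tex101 against other germ cells under Chd4 siRNA at −0.0183. In the lowest 10%, Prr13 was at −0.13 against other germ cells under Chd4 siRNA. The cause of these changes was not tested. Depth limits genes near 200 UMIs and cells near the boundary, which held a few UMIs of the 12 genes.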
